A study of Mus musculus with 8 samples.

Results

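Mouse splenic CD4+ T cells kept for 3 days under Treg differentiation conditions were compared with CD4+ T cells taken directly from the spleen, which the labels call naive. The members were chosen by label, as the 2 Treg libraries (numbered 2 and 3) and the 2 naive libraries (numbered 1 and 2), so that 4 of the 8 RNA-seq libraries of the study entered the comparison. The other 4 libraries, cells cultured for 3 days under Th17 conditions and Th0 cells stimulated for 3 days with antibodies to CD3 and CD28, were used to estimate the spread and to test where Treg cultures differed from other cultured T cells. All mice were wild type on the C57BL/6 background, and age is not given in the sources used here. For the naive group the labels name selection of CD4+ T cells from spleen, with no gate on CD62L, CD44 or CD25, and for the Treg group they name the culture condition without its cytokines. Whether the libraries of a group stem from different mice or cultures is not stated, and the p-values therefore rest on a spread that may be purely technical. Total counts were 14767329 and 12504463 in the Treg libraries, against 20225716 and 22443368 in the naive libraries.

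Treg cells are CD4+ T cells that restrain other lymphocytes and are defined by the X-linked transcription factor Foxp3. Those made in the thymus and those induced from naive cells in the periphery share a surface set that includes the IL-2 receptor alpha chain CD25 (Il2ra), CTLA-4 and GITR (Tnfrsf18). In culture, T cell receptor stimulation together with TGF-beta and IL-2 induces Foxp3 through SMAD and STAT5 proteins. A naive T cell, in contrast, is small and out of cycle, circulates through lymphoid organs by means of CCR7 and S1PR1, and is kept there by KLF2, FOXO1 and other quiescence factors.

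Of 14690 genes tested, 8312 (56.6%) were called at an edgeR adjusted p under 0.05, 4054 (27.6%) of them higher and 4258 (29%) lower in Treg. Levels below are CPM, in which library totals are made equal with TMM factors, and the values of a pair are given in the order of the library numbers. Fold changes are Treg over naive on the log2 scale, and ± marks their standard error (SE). Changes of at least 2-fold were called higher in 1911 genes (13%) and lower in 2494 genes (17%). Both Treg libraries lay above both naive libraries for 5874 genes (40%) and below both for 6149 genes (41.9%), called or not. The largest changes were mostly losses. A log2 fold change of 5 or more was called for 86 genes, and one of -5 or less for 487 genes. Among all genes called lower, 240 had no count in either Treg library, and among those called higher, 47 had none in either naive library. The median log2 fold change over all tested genes was -0.01. The Treg pair and the naive pair each correlated at 0.993 across genes (log2 of CPM plus 1; genes are not independent replicates).

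Transcripts of other spleen cells were part of the naive profile and were much scarcer in the Treg cultures. A list of 151 genes joined the markers of 13 other cell types with the MHC class II genes. It held 0.341% and 0.344% of the counts of the Treg libraries, against 2.46% and 2.26% of the naive libraries. In the bulk libraries, fewer cells of a type and less RNA per cell cannot be told apart. Red pulp macrophages, the iron-recycling phagocytes of the spleen, had the largest summed loss. Their 18 markers summed to 247 and 226 CPM in Treg, against 7729 and 7169 CPM in naive, and all 18 were called lower. Vcam1, by which these macrophages hold other cells, measured 12.1 and 10.2 CPM in Treg, against 1078 and 1029 CPM in naive (log2 fold change -6.56 ± 0.34, edgeR adjusted p = 3.92e-07). The ferroportin gene Slc40a1, which exports iron, measured 2.88 and 2.91 CPM in Treg against 685 and 538 CPM in naive (-7.72 ± 0.28), and the scavenger receptor Cd163 had no count in Treg and 173 and 181 CPM in naive, at least 832-fold lower. Both Treg libraries lay below both naive libraries for every one of these 3 genes.

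B cells formed the other large share. Their 18 markers summed to 697 and 635 CPM in Treg, against 4781 and 3967 CPM in naive, and all 18 were lower. The immunoglobulin heavy chain gene Ighm measured 424 and 379 CPM in Treg, against 2276 and 1906 CPM in naive (log2 fold change -2.38 ± 0.14, edgeR adjusted p = 7.91e-07), and the B cell surface gene Ms4a1 (CD20) measured 13.7 and 11 CPM in Treg against 264 and 210 CPM in naive (-4.26 ± 0.25). The MHC class II genes, which B cells and other antigen-presenting cells express, summed to 503 and 506 CPM in Treg, against 6911 and 6275 CPM in naive, and all 10 were lower. Monocyte markers summed to 161 and 154 CPM in Treg, against 1454 and 1431 CPM in naive (12 of 12 lower). Dendritic cell markers stood at 145 and 129 CPM in Treg, against 764 and 740 CPM in naive (12 of 13 lower), with Siglech, Cd209a and Clec4a4 at 0 in both Treg libraries. Neutrophil markers stood at 11.1 and 19.4 CPM in Treg, against 447 and 548 CPM in naive (11 of 12 lower). Each of these sums was lower in both Treg libraries than in either naive library.

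Smaller marker sums differed as well, and not all in the same direction. Erythroid markers summed to 298 and 285 CPM in Treg, against 537 and 480 CPM in naive. The transferrin receptor Tfrc, which dividing T cells also use, made up nearly all of the Treg sum (293 and 282 CPM in Treg against 143 and 152 CPM in naive; 0.96 ± 0.13), while the 9 other erythroid genes were lower and Alas2 and Slc4a1 had no count in Treg. Endothelial and stromal markers (6 of 9 lower) summed to 74.7 and 77.3 CPM in Treg, against 313 and 322 CPM in naive. Platelet markers (5 of 7 lower) summed to 112 and 108 CPM in Treg, against 151 and 154 CPM in naive, and plasma cell markers (4 lower and 1 higher of 5) to 112 and 125 CPM in Treg, against 327 and 355 CPM in naive. Gamma-delta and innate-like T cell markers summed to 38.6 and 38.9 CPM in Treg, against 119 and 104 CPM in naive. Of these 6 markers, Zbtb16 and Blk were called lower and 4 were not called. Blk is also a B cell gene, and the part of B cells in this sum was not tested. Of 7 tested mast cell and basophil markers, 2 were higher and none lower. Their sum stood at 208 and 213 CPM in Treg, against 85.1 and 76.6 CPM in naive. That sum was nearly all Kit, the stem cell factor receptor (197 and 203 CPM in Treg against 77.8 and 67.7 CPM in naive; 1.46 ± 0.13), while the mast cell protease gene Cpa3, also higher, measured 4.72 and 4.75 CPM in Treg against 0.578 and 0.867 CPM in naive (2.69 ± 0.47). Mcpt8 measured 2.95 and 1.46 CPM in Treg against 0.915 and 1.21 CPM in naive and was not called.

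**Figure D1:**
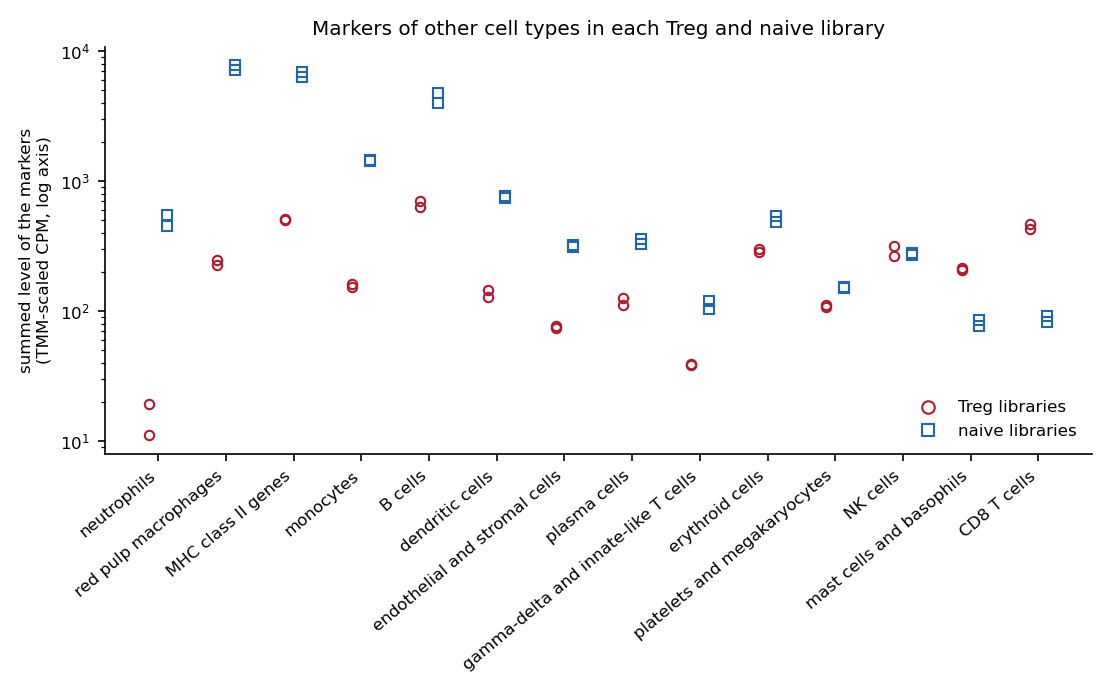
Summed CPM (log axis) of the marker genes of 13 other cell types and of the MHC class II genes in each Treg (left, circles) and naive (right, squares) library. Macrophage, monocyte, neutrophil, dendritic cell, B cell and MHC class II sums were all lower in both Treg libraries, while the CD8 T cell sum was higher (426 and 469 CPM in Treg, against 91.6 and 82.0 CPM in naive).

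Foxp3 was higher in Treg cultures, but the naive libraries already held a sizeable level of it. Foxp3 (chrX:7579676-7595243 on GRCm38) measured 317 and 270 CPM in Treg, against 95 and 101 CPM in naive (log2 fold change 1.58 ± 0.18, edgeR adjusted p = 5.83e-05). Th0 cultures of the same length held 5.94 and 4.70 CPM and Th17 cultures 9.93 and 5.91 CPM, so Treg cultures stood 5.78 above Th0 and 5.19 above Th17 on the log2 scale (edgeR adjusted p = 2.7e-06 and 3.13e-06). Other Treg genes were likewise present in the naive libraries. Ikzf2, which encodes Helios, a factor abundant in thymus-derived Treg cells, measured 358 and 341 CPM in Treg, against 146 and 151 CPM in naive (log2 fold change 1.24 ± 0.10, edgeR adjusted p = 6.12e-06). Neuropilin-1 (Nrp1), a surface receptor also used as a mark of thymus-derived cells, went the other way, at 28.2 and 23 CPM in Treg, against 82.1 and 82.6 CPM in naive (log2 fold change -1.68 ± 0.21, edgeR adjusted p = 0.000129). For Foxp3 and Ikzf2 both Treg libraries lay above both naive libraries, and for Nrp1 both lay below. The part of other spleen cells in the naive Nrp1 level was not tested.

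Of 31 Treg signature genes, 20 were higher, 6 were lower and 5 were not called, with a median log2 fold change of 1.23 beside -0.01 for all genes. The largest gains were in receptor genes. 4-1BB (Tnfrsf9), a costimulatory receptor, measured 571 and 578 CPM in Treg, against 25.3 and 31.4 CPM in naive (log2 fold change 4.34 ± 0.16, edgeR adjusted p = 7.95e-08). Il2ra, which gives the IL-2 receptor its high affinity, measured 1236 and 1157 CPM in Treg, against 83 and 84.1 CPM in naive (log2 fold change 3.84 ± 0.13, edgeR adjusted p = 6.16e-08). Ccr8, a chemokine receptor of tissue Treg cells, measured 133 and 118 CPM in Treg, against 7.90 and 6.76 CPM in naive (log2 fold change 4.10 ± 0.18, edgeR adjusted p = 1.76e-07). For all 3 genes both Treg libraries lay far above both naive libraries. Ikzf4, which encodes Eos, a corepressor that works with Foxp3, measured 137 and 127 CPM in Treg against 17.1 and 14.9 CPM in naive (3.04 ± 0.15), and GITR (Tnfrsf18) measured 305 and 265 CPM in Treg against 39.2 and 40.4 CPM in naive (2.84 ± 0.10). Ctla4, which strips CD80 and CD86 from antigen-presenting cells, measured 783 and 820 CPM in Treg against 226 and 232 CPM in naive (log2 fold change 1.81 ± 0.10, edgeR adjusted p = 6.7e-07).

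Other members rose as well. OX40 (Tnfrsf4) had a log2 fold change of 2.46 ± 0.14, the checkpoint receptor Lag3 2.53 ± 0.10, the gut-homing receptor Gpr15 2.56 ± 0.23, the actin-capping gene Capg 1.83 ± 0.10 and the skin-homing receptor Ccr4 1.43 ± 0.17. The integrin chain Itgae (CD103), which binds E-cadherin on epithelium, measured 61.4 and 55.9 CPM in Treg against 25.2 and 23.9 CPM in naive (1.26 ± 0.13). Tigit (1.27 ± 0.13), Icos (1.23 ± 0.10), the folate receptor family gene Izumo1r (0.97 ± 0.11), the adenosine-forming ectoenzyme Nt5e (CD73; 0.88 ± 0.13) and the IL-33 receptor Il1rl1 (0.87 ± 0.17) were also higher. Gpr83, at 34 and 33.6 CPM in Treg against 25.2 and 25.1 CPM in naive, passed narrowly (log2 fold change 0.42 ± 0.15, edgeR adjusted p = 0.0324), and its call was lost with any 1 Treg or naive library left out (0.42 to 0.44).

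The 6 members that were lower in Treg include genes of effector and tissue Treg cells. Areg, a growth factor by which tissue Treg cells aid repair, had no count in Treg and 3.32 and 2.38 CPM in naive, at least 13.4-fold lower. Klrg1, an inhibitory receptor of terminally differentiated cells, measured 0.590 and 0 CPM in Treg against 8.29 and 10.4 CPM in naive (-4.86 ± 0.75), and its fold change moved to -10.26 without Treg library 2, which held all of its Treg counts, and to -3.96 without Treg library 3. Itgb8, an integrin chain that activates latent TGF-beta, measured 2.88 and 3.30 CPM in Treg against 15.1 and 12.8 CPM in naive (log2 fold change -2.18 ± 0.24, edgeR adjusted p = 5.75e-05). Both Treg libraries were below both naive libraries for each of these genes. Cd83 (50 and 40.9 CPM in Treg against 145 and 122 CPM in naive; -1.55 ± 0.14) and the ATP-degrading enzyme Entpd1 (CD39; 44.8 and 47.7 CPM in Treg against 63.2 and 65.8 CPM in naive; -0.48 ± 0.12) were lower too, the Entpd1 call being lost without Treg library 2 (-0.43). Cd83 is also made by activated B cells and dendritic cells, and Areg and Klrg1 by innate lymphocytes and other spleen cells. Nrp1, Entpd1 and Itgb8 are not confined to T cells either. The part of other spleen cells in these 6 losses was not tested. Against Th0 cultures Nrp1 and Entpd1 were instead higher in Treg (log2 fold change 3.62 ± 0.28, and 1.33 ± 0.13).

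The other 5 signature genes were not called. Il10, the suppressive cytokine, measured 6.94 and 7.28 CPM in Treg against 7.61 and 7.15 CPM in naive, and the IL-35 subunit Ebi3 measured 15 and 18.6 CPM in Treg against 12.9 and 13.1 CPM in naive. Prdm1, which encodes the effector Treg factor Blimp-1, measured 20 and 20.7 CPM in Treg against 24.1 and 22 CPM in naive, and Penk measured 7.07 and 6.82 CPM in Treg against 9.68 and 6.94 CPM in naive. Lrrc32 (GARP), which holds latent TGF-beta on the Treg surface, measured 77.2 and 67.7 CPM in Treg against 33 and 63.2 CPM in naive (log2 fold change 0.59 ± 0.24, edgeR adjusted p = 0.0617). Its naive libraries lay far apart, and it was called without naive library 2 (log2 fold change 1.13), with no filter on low counts (0.55), with DESeq2 (0.53) and with limma's voom (0.65).

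**Figure D2:**
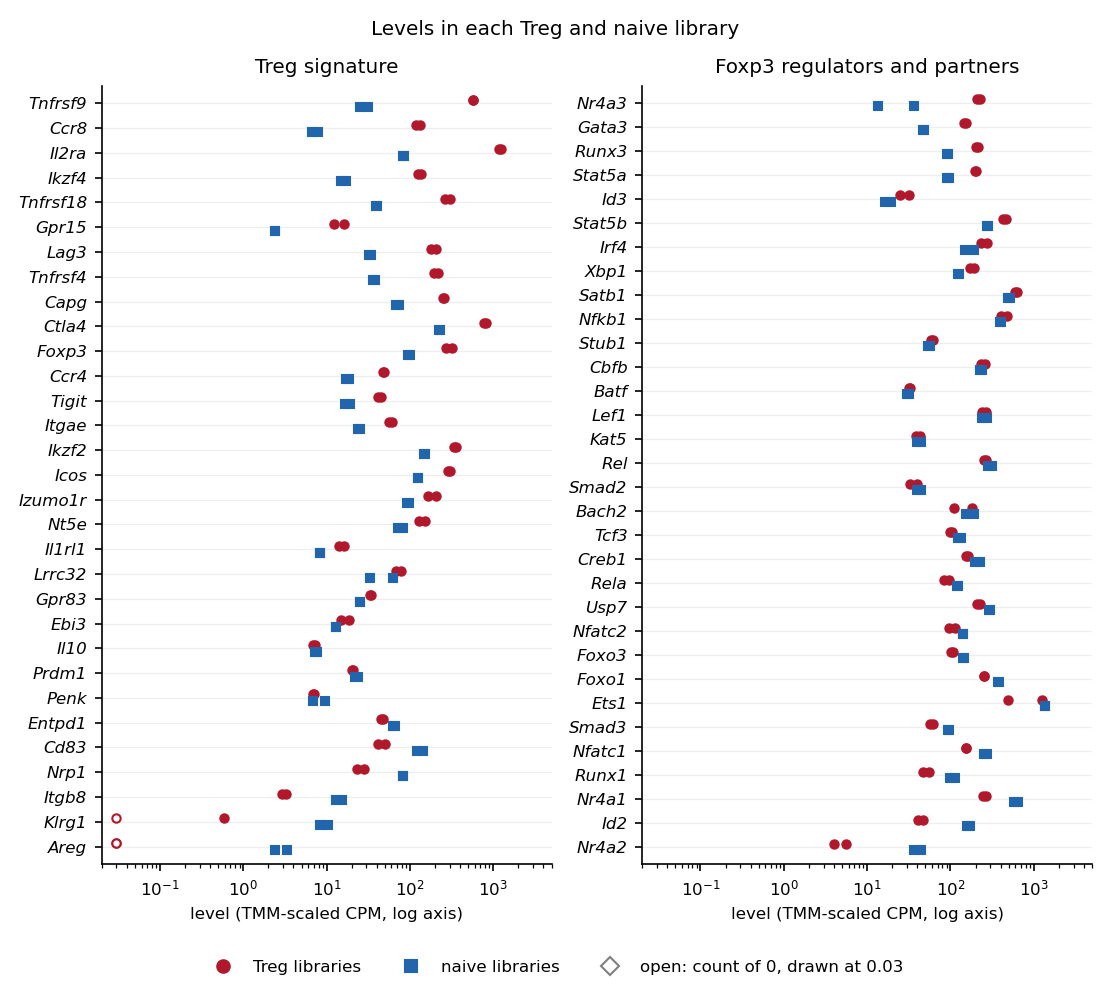
CPM (log axis) of the Treg signature genes and of the Foxp3 regulators and partner factors in each library, with Treg as red circles and naive as blue squares; an open symbol marks a library with no count. The red symbols lie to the right for most signature genes, as for Foxp3 (317 and 270 CPM in Treg, against 95.0 and 101 CPM in naive), and to the left for Areg, Klrg1, Itgb8, Nrp1, Cd83 and Entpd1.

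The factors that act on the Foxp3 gene or beside its protein were not raised as a group. Of 32 tested, 9 were higher, 13 lower and 10 not called, beside 27.6% higher and 29% lower of all tested genes. Their median log2 fold change was -0.19. Among those that were higher, the nuclear receptor Nr4a3 measured 229 and 209 CPM in Treg against 36.2 and 13.4 CPM in naive (log2 fold change 3.15 ± 0.35, edgeR adjusted p = 6.04e-05), and it moved to 4.03 without naive library 1, the higher of the naive libraries. Gata3, the Th2 factor that also maintains Treg cells at barriers, measured 154 and 147 CPM in Treg against 46.9 and 47.9 CPM in naive (log2 fold change 1.66 ± 0.09, edgeR adjusted p = 6.7e-07). Runx3 (1.17 ± 0.11), a partner of Cbfb in Foxp3 transcription, and both STAT5 genes, Stat5a (1.11 ± 0.08) and Stat5b (0.67 ± 0.09), were higher as well. In contrast, Nr4a2 measured 4 and 5.52 CPM in Treg against 44.5 and 36.9 CPM in naive (-3.10 ± 0.25) and Nr4a1 measured 269 and 245 CPM in Treg against 651 and 587 CPM in naive (-1.27 ± 0.09). These 3 related receptors, which T cell receptor signals induce, thus did not move together. Runx1 (-1.06 ± 0.13), Nfatc1 (-0.76 ± 0.09), Smad3 (-0.68 ± 0.10), Foxo1 (-0.57 ± 0.08) and the inhibitory helix-loop-helix gene Id2 (-1.92 ± 0.18) were lower. Ets1, which binds a conserved region of Foxp3, differed between the Treg libraries (1262 and 494 CPM, against 1380 CPM in both naive libraries) and was called when Treg library 2 was left out (-1.48) or with no filter on low counts (-0.69). The count of 13 lower fell to 8 without Treg library 3.

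Genes of the IL-2 receptor and its STAT5 response were higher in Treg in 15 of 20 cases and lower in 2. Their median log2 fold change was 1.07. Against Th0 cultures 11 were higher and 7 lower in Treg (median 0.42), beside 25.7% and 20.6% of all tested genes. Against Th17 cultures 6 were higher and 7 lower (median -0.04), beside 14.5% and 14.8%. Cish, a STAT5 target that restrains cytokine signals, measured 243 and 122 CPM in Treg, against 33.1 and 34.9 CPM in naive (log2 fold change 2.43 ± 0.27, edgeR adjusted p = 6.01e-05). Socs2 (2.27 ± 0.31) and Socs1 (1.59 ± 0.22), inhibitors of the same pathway, were higher, as were the receptor chain Il2rb (1.04 ± 0.11), the kinase Jak3 (1.95 ± 0.12) and the survival gene Bcl2 (393 and 404 CPM in Treg against 181 and 191 CPM in naive; 1.10 ± 0.12). Jak1 (-0.48 ± 0.09) and the shared gamma chain Il2rg (-0.25 ± 0.08) were lower, the Il2rg call being lost without naive library 1 (-0.26), naive library 2 (-0.25) or Treg library 3 (-0.18). The cytokine gene Il2 itself, which Foxp3 represses, measured 0.131 and 0.767 CPM in Treg against 1.25 and 0.867 CPM in naive and was not called.

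Of 28 genes of the TGF-beta pathway, 8 were higher, 10 lower and 10 not called (median log2 fold change -0.08), shares not far from the 27.6% higher and 29% lower of all tested genes. Pmepa1, a target of TGF-beta that dampens SMAD signals, measured 74.6 and 69.1 CPM in Treg, against 10.4 and 11.3 CPM in naive (log2 fold change 2.72 ± 0.14, edgeR adjusted p = 3.1e-07). Ldlrad4 (1.31 ± 0.16), a feedback inhibitor too, was higher, as were the ligand Tgfb3 (1.96 ± 0.20), the protease Furin that matures the ligand (1.58 ± 0.11) and the latency protein Ltbp3 (3.54 and 3.53 CPM in Treg against 0.385 and 0.303 CPM in naive; 3.34 ± 0.43). The receptor Tgfbr2 measured 217 and 190 CPM in Treg, against 423 and 419 CPM in naive (log2 fold change -1.05 ± 0.09, edgeR adjusted p = 9.32e-06), and the inhibitory Smad7, which in many cells is a rapid target of the pathway, measured 75.7 and 68.4 CPM in Treg against 138 and 123 CPM in naive (-0.85 ± 0.11). Smad3 (-0.68 ± 0.10), Tgif1 (-1.05 ± 0.10) and the coreceptor Tgfbr3 (-0.78 ± 0.14) were lower. Tgfb1, the main ligand of lymphocytes, measured 259 and 258 CPM in Treg against 249 and 209 CPM in naive and was not called.

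Cytokine genes of other helper lineages were also detected in the Treg cultures. Of 25 tested cytokine and cytokine receptor genes, 10 were higher and 4 lower, beside 27.6% and 29% of all tested genes. Il17a, the signature cytokine of Th17 cells, measured 57.4 and 34.3 CPM in Treg, against 0.723 and 0.217 CPM in naive (log2 fold change 6.62 ± 0.49, edgeR adjusted p = 4.02e-06). Il17f measured 23 and 13 CPM in Treg, against 0.578 and 0.390 CPM in naive (log2 fold change 5.21 ± 0.43, edgeR adjusted p = 7.71e-06), and Il13, a Th2 cytokine, measured 5.04 and 2.99 CPM in Treg against 0.0964 and 0 CPM in naive (6.24 ± 0.83). In each of these 3 genes both Treg libraries were above both naive libraries, and Treg library 2 was the higher one. Naive levels near 0 made 2 of these folds uncertain, that of Il17a being 7.67 without naive library 1 and 5.97 without naive library 2, and that of Il13 being 8.98 and 5.27. Beside the Th17 cultures, the Il17a difference was not called (Th17 60.9 and 33.7 CPM; log2 fold change -0.05 ± 0.32, edgeR adjusted p = 0.939), while Il17f was lower in Treg (Th17 136 and 89.5 CPM; -2.64 ± 0.29). Ifng, the Th1 cytokine, measured 60.7 and 32.1 CPM in Treg against 13.5 and 14.9 CPM in naive (1.71 ± 0.28), and Il12rb2, a receptor chain for IL-12, measured 214 and 190 CPM in Treg against 18.1 and 18.1 CPM in naive (3.48 ± 0.12). Il6ra measured 116 and 109 CPM in Treg against 315 and 324 CPM in naive (-1.50 ± 0.09) and Il27ra (-0.93 ± 0.10), Il4ra (-0.63 ± 0.08) and Ltb (-0.98 ± 0.12) were lower too.

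The factors that direct those lineages followed their cytokines only in part. Tbx21, the Th1 factor, measured 28.6 and 24.7 CPM in Treg against 23.3 and 23.9 CPM in naive and was not called. Stat3 (1.27 ± 0.09), Stat4 (1.04 ± 0.10) and Ahr (0.85 ± 0.10) were higher. Bcl6, the factor of follicular helper cells, measured 19.3 and 23.8 CPM in Treg, against 72.4 and 64.8 CPM in naive (log2 fold change -1.67 ± 0.20, edgeR adjusted p = 8.74e-05), and Maf (-1.35 ± 0.16) and Ikzf3 (-0.85 ± 0.12) were lower. Over the 19 helper lineage factors 8 were higher and 6 lower, beside 27.6% and 29% of all tested genes. The largest loss among them was Spi1 (PU.1; 5.37 and 4.83 CPM in Treg against 105 and 106 CPM in naive; -4.36 ± 0.13), which macrophages and B cells express strongly. The part of those cells in the Spi1 value was not tested.

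Both CD8 genes and the granzyme B gene were higher in the Treg cultures, whereas perforin was lower. Granzyme B (Gzmb), a cytotoxic protease also found in activated Treg cells, measured 560 and 461 CPM in Treg, against 10.5 and 12.7 CPM in naive (log2 fold change 5.46 ± 0.15, edgeR adjusted p = 2.88e-08). Cd8a measured 282 and 334 CPM in Treg, against 54.9 and 41.8 CPM in naive (log2 fold change 2.67 ± 0.14, edgeR adjusted p = 4.32e-07) and Cd8b1 measured 144 and 136 CPM in Treg against 36.8 and 40.2 CPM in naive (1.86 ± 0.10). On the deposited FPKM scale, which divides by gene length, Cd8a stood at 37.9 and 45.2 in Treg, against 7.32 and 5.58 in naive, Cd8b1 at 100 and 95.4 in Treg, against 25.4 and 27.9 in naive, and Cd4 at 149 and 173 in Treg, against 127 and 134 in naive. The Treg libraries labelled as CD4+ T cells thus held Cd8b1 at a level of the same order as Cd4. Among 12 natural killer cell markers, which CD8 T cells partly share, Nkg7 (1.70 ± 0.13), Klrk1 (0.98 ± 0.18), Gzma (1.34 ± 0.27, and 0.74 without Treg library 3) and Klrd1 (0.82 ± 0.19, its call lost at 0.49 without Treg library 3) were higher, and 6 were lower. The lower genes included Prf1, which encodes the pore-forming protein perforin (6.35 and 7.90 CPM in Treg against 19 and 26.2 CPM in naive; -1.67 ± 0.27). They also included Ncr1 (0.131 and 0.153 CPM in Treg against 8.29 and 7.50 CPM in naive; -5.73 ± 0.47), which natural killer cells express and most T cells lack. The part of CD8 T cells in the Gzmb and Ifng values was not tested.

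**Figure D3:**
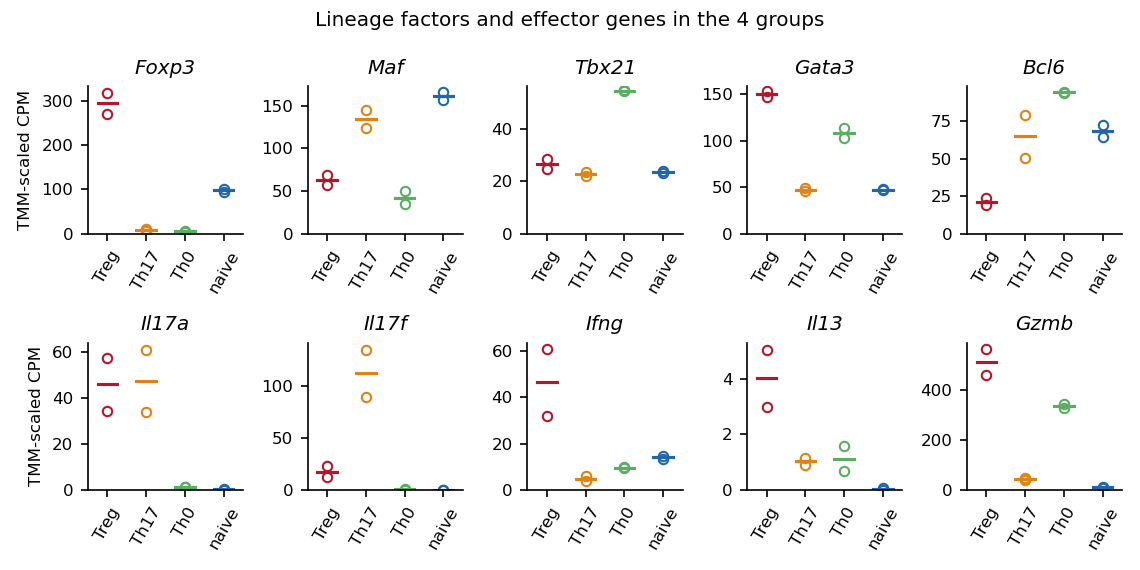
CPM of Foxp3, lineage factors and cytokines in Treg, Th17, Th0 and naive libraries, with points for the libraries and bars for the group means. Foxp3 was highest in Treg and lowest in Th0 and Th17, and Il17a reached 57.4 and 34.3 CPM in Treg, while Tbx21 lay close in Treg and naive libraries.

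Quiescence and circulation genes were lower in Treg in 13 of 27 cases and higher in 5 (median log2 fold change -0.28). Of all tested genes 29% were lower and 27.6% higher. Klf2, which keeps T cells quiescent and drives S1pr1, measured 140 and 117 CPM in Treg, against 477 and 472 CPM in naive (log2 fold change -1.88 ± 0.14, edgeR adjusted p = 3.41e-06). S1pr1, the exit receptor of lymphoid organs, measured 226 and 190 CPM in Treg against 500 and 550 CPM in naive (-1.34 ± 0.13). Both Treg libraries were below both naive libraries for these genes. The antiproliferative genes Btg2 (96 and 94.6 CPM in Treg against 484 and 451 CPM in naive; -2.29 ± 0.15) and Btg1 (550 and 534 CPM in Treg against 1827 and 1803 CPM in naive; -1.74 ± 0.09), Klf3 (-2.13 ± 0.11), Klf6 (-1.99 ± 0.10), Txnip (-1.77 ± 0.29), Slfn2 (-1.16 ± 0.10) and Foxo1 fell as well. Against Th0, however, Klf2 was higher in Treg (Th0 24.9 and 20.9 CPM; log2 fold change 2.49 ± 0.15, edgeR adjusted p = 1.33e-05).

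Other genes of the naive state were not called or were called in either direction. Ccr7, which guides cells into lymph nodes, measured 433 and 398 CPM in Treg against 345 and 357 CPM in naive (log2 fold change 0.24 ± 0.10, edgeR adjusted p = 0.0602), and was called with limma's voom, in a fit of only the 4 Treg and naive libraries (0.24 in both) and without either Th17 library (0.25). Lef1 (264 and 241 CPM in Treg against 238 and 274 CPM in naive), Bach2 (184 and 110 CPM in Treg against 190 and 156 CPM in naive) and Foxp1 (188 and 73.5 CPM in Treg against 124 and 107 CPM in naive) were not called. Foxp1 and Bach2 had a wide gap between the Treg libraries, with library 2 the higher. Tcf7 measured 658 and 646 CPM in Treg against 790 and 885 CPM in naive (log2 fold change -0.36 ± 0.12, edgeR adjusted p = 0.0237), a call lost without naive library 2 (-0.28), Treg library 2 (-0.37) or Treg library 3 (-0.34). Atp1b1 was higher (0.71 ± 0.12), as was Il7r, the receptor for the survival cytokine IL-7 (421 and 411 CPM in Treg against 291 and 338 CPM in naive; 0.40 ± 0.09), whose call was lost without naive library 1 (0.30). Of the 27 genes, the count of higher ones was 2 without naive library 1 and 3 without naive library 2 or Treg library 2. Of 25 T cell receptor and pan T genes, 11 were higher and 5 lower (median 0.20), beside 27.6% and 29% of all tested genes. The count of lower ones fell without naive library 2 or Treg library 3. Thy1 (693 and 721 CPM in Treg against 304 and 330 CPM in naive; 1.16 ± 0.11) and Cd2 (1 ± 0.10) led the gains, all 4 CD3 chain genes (Cd3d, Cd3e, Cd3g and Cd247) were higher by 0.64 to 0.92, and Lck (638 and 627 CPM in Treg against 574 and 629 CPM in naive) was not called. Cd4 measured 713 and 821 CPM in Treg against 616 and 645 CPM in naive (log2 fold change 0.28 ± 0.09, edgeR adjusted p = 0.0261), a call lost with RLE scaling or DESeq2 (0.22 in both) and without naive library 1 (0.25), naive library 2 (0.32) or Treg library 3 (0.19).

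Of 28 chemokine receptor and homing genes, 17 were lower and 5 higher (median log2 fold change -0.73), beside 29% and 27.6% of all tested genes. The 5 gains were Ccr8, Gpr15, Ccr4, Itgae and Selplg (657 and 657 CPM in Treg against 379 and 399 CPM in naive; 0.76 ± 0.08), the last encoding the selectin ligand PSGL-1. Cxcr3, a receptor of Th1 cells, measured 7.86 and 7.28 CPM in Treg, against 46.4 and 46.3 CPM in naive (log2 fold change -2.61 ± 0.17, edgeR adjusted p = 1.82e-06). Cxcr4, which senses CXCL12 in marrow and lymphoid stroma, measured 72.1 and 60.3 CPM in Treg against 202 and 204 CPM in naive (-1.62 ± 0.13), and the integrin chain Itga4 measured 240 and 246 CPM in Treg against 1018 and 1133 CPM in naive (-2.14 ± 0.09). Ccr3 (0.655 and 0.307 CPM in Treg against 131 and 123 CPM in naive; -7.99 ± 0.24, and -8.66 without Treg library 2), Ccr9 (1.57 and 0.537 CPM in Treg against 36.5 and 40.7 CPM in naive; -5.15 ± 0.35, and -6.15 without Treg library 2) and Ccr2 (8.38 and 9.27 CPM in Treg against 49.3 and 51.3 CPM in naive; -2.51 ± 0.14) were lower. Ccr9 is also a gene of plasmacytoid dendritic cells and Ccr2 one of monocytes, whose marker sums are given above, and their part in these values was not tested. Neither was the part of other spleen cells in the Ccr3 value. Ccr6 (18.6 and 19.9 CPM in Treg against 16 and 17.6 CPM in naive) and Itgb7 (519 and 528 CPM in Treg against 530 and 541 CPM in naive) were not called.

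Of 28 costimulatory and checkpoint genes, 13 were higher and 9 lower, beside 27.6% and 29% of all tested genes. Besides the TNF receptor genes above, Pdcd1 (PD-1) measured 46.4 and 37.5 CPM in Treg against 24.1 and 16.3 CPM in naive (1.06 ± 0.24). The lower genes included Cd244 (2.62 and 2.84 CPM in Treg against 42.9 and 43.8 CPM in naive; -3.99 ± 0.18) and Havcr2 (TIM-3; 7.14 and 7.28 CPM in Treg against 43.7 and 43.4 CPM in naive; -2.59 ± 0.16), both of which macrophages or natural killer cells also express. Cd69, an early activation antigen, measured 64.7 and 60.2 CPM in Treg against 283 and 255 CPM in naive (-2.11 ± 0.09), Cd40lg, by which helper cells license B cells, 31.4 and 31.4 CPM in Treg against 82 and 84.6 CPM in naive (-1.41 ± 0.12), and Btla 118 and 114 CPM in Treg against 275 and 302 CPM in naive (-1.31 ± 0.10). Cd44, a marker of antigen-experienced cells, measured 212 and 194 CPM in Treg against 234 and 268 CPM in naive (log2 fold change -0.30 ± 0.10, edgeR adjusted p = 0.0321), a call lost without naive library 2 (-0.20), Treg library 2 (-0.36) or Treg library 3 (-0.23).

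**Figure D4:**
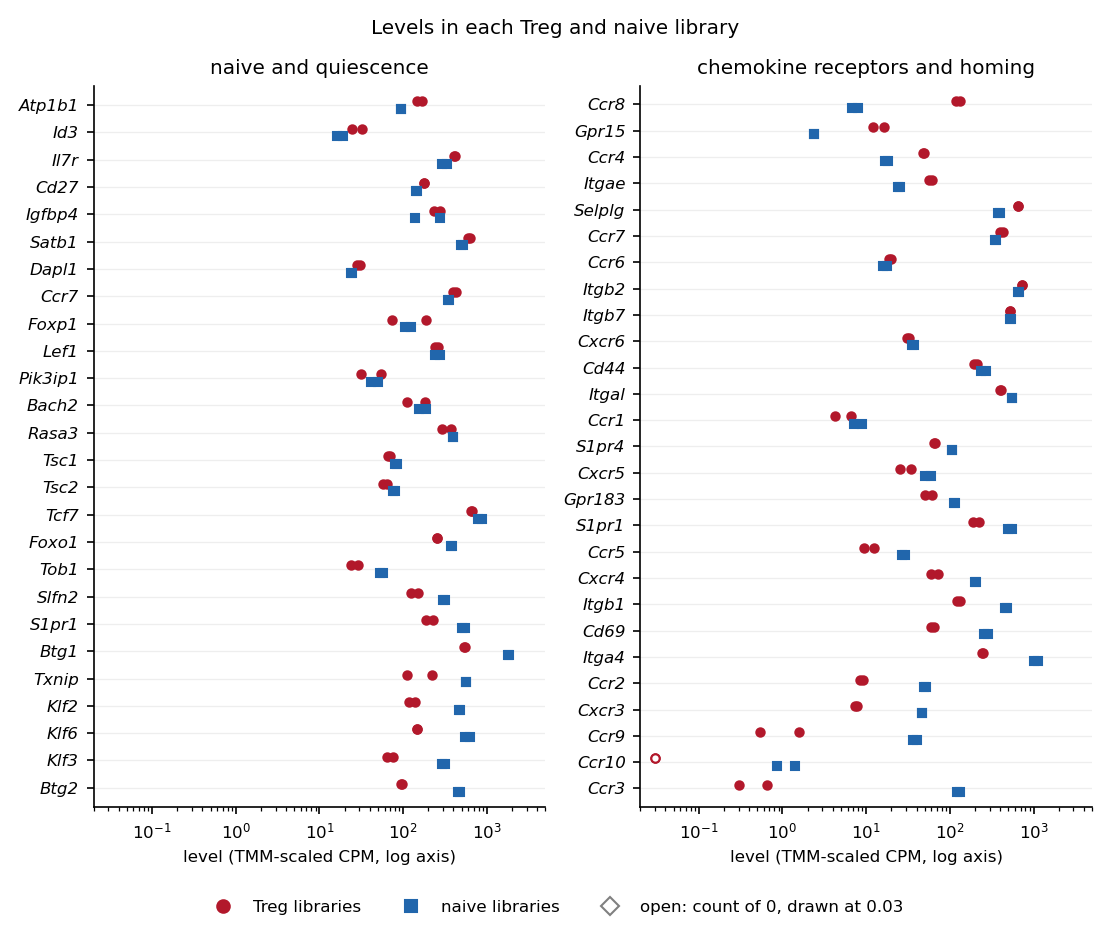
CPM (log axis) of naive and quiescence genes and of chemokine receptor and homing genes in each library, Treg as red circles and naive as blue squares. Klf2 and S1pr1 lie lower in both Treg libraries, Ccr7 lies close in all 4 libraries, and Ccr8 lies higher in Treg (133 and 118 CPM, against 7.90 and 6.76 CPM in naive).

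Every one of the 30 tested mitosis genes was higher in Treg, with a median log2 fold change of 3.26. Mki67, the common marker of cycling cells, measured 1959 and 1871 CPM in Treg, against 262 and 261 CPM in naive (log2 fold change 2.87 ± 0.11, edgeR adjusted p = 8.63e-08). Top2a, which untangles chromosomes, measured 2005 and 1921 CPM in Treg against 179 and 170 CPM in naive (3.49 ± 0.11), and the kinase Cdk1 measured 133 and 122 CPM in Treg against 13.7 and 13.5 CPM in naive (3.23 ± 0.11). The smallest gain was that of Cenpa (336 and 388 CPM in Treg against 87.2 and 92 CPM in naive; 2.01 ± 0.13) and the largest that of Hmmr (200 and 223 CPM in Treg against 16.3 and 12.4 CPM in naive; 3.89 ± 0.20). DNA replication genes were higher in 28 of 30 cases (median 1.98), led by the ribonucleotide reductase subunit Rrm2 (485 and 443 CPM in Treg against 52.5 and 48.7 CPM in naive; 3.20 ± 0.14), Mcm10 (3.03 ± 0.15) and the polymerase gene Pole (2.95 ± 0.13). Ung (14.4 and 14.5 CPM in Treg against 11.2 and 12.2 CPM in naive) and Fen1, whose Treg libraries differed by a wide margin (100 and 26.1 CPM in Treg against 37.6 and 33 CPM in naive), were not called. Among 17 brakes of the cell cycle, 9 were higher and 5 lower, beside 27.6% and 29% of all tested genes. The inhibitors Cdkn1a (p21; 95 and 102 CPM in Treg against 14.7 and 14.9 CPM in naive; 2.73 ± 0.12) and Cdkn2c (2.14 ± 0.14) were higher, while Btg1, Btg2, Tob1, Tob2 and Mxd4 were lower. Against Th0 cultures, which also divide, 4 mitosis genes were higher and 9 lower in Treg (median -0.06), and 16 replication genes were higher and 1 lower (median 0.37), beside 25.7% higher and 20.6% lower over all tested genes.

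The promoters of these genes carry short words that are known from cell cycle and sterol control, and 5 are shown as members of groups in which all or nearly all genes were higher. Promoters came from RefSeq on GRCm38.p6, 300 bases from 250 before to 50 after the start, 1 per gene, and the 250 bases before the start are printed for the members with the greatest fold change that hold the words there. The words searched on both strands were the cell cycle homology element (TTTGAA or TTCGAA), the CCAAT box (CCAAT) bound by NF-Y, and 2 E2F words (TTCCCGC or TTGGCGC). An E2F word TTGGCGC that follows an A overlaps a CCAAT box on the opposite strand. Capitals mark any of these words on either strand. Ube2c and Kif11 are mitosis genes (chr2:164769679-164769928 and chr19:37376132-37376381, both on the plus strand), Uhrf1 and Cdc6 replication genes (chr17:56303087-56303336 and chr11:98907901-98908150, plus strand), and Hmgcs1 a cholesterol synthesis gene (chr13:119690101-119690350, plus strand).
Ube2c: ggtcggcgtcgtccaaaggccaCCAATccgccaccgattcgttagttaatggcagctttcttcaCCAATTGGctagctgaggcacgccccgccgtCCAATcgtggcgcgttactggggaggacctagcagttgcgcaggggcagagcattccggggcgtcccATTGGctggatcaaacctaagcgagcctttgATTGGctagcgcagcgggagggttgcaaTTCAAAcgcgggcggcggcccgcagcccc
Kif11: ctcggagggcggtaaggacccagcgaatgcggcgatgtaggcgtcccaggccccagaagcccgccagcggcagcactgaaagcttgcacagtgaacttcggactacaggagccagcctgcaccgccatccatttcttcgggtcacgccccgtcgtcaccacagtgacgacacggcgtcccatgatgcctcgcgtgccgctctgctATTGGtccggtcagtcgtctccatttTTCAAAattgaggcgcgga
Uhrf1: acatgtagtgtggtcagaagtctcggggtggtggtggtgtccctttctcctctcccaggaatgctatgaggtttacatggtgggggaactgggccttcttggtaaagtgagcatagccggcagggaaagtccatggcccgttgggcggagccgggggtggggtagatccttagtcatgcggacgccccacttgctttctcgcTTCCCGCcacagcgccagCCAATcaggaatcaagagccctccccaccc
Cdc6: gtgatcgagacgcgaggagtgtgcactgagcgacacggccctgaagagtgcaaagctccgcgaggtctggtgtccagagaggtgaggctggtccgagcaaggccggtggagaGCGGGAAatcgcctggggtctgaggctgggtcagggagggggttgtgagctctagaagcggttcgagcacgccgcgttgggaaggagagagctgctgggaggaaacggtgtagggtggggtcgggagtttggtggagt
Hmgcs1: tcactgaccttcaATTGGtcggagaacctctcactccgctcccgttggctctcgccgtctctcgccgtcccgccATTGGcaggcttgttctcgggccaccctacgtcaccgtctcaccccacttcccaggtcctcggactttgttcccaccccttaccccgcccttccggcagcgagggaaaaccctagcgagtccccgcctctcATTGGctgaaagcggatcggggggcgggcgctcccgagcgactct

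The printed genes were among the plain gains. Ube2c, which tags mitotic proteins for destruction, measured 273 and 306 CPM in Treg against 21.2 and 22.5 CPM in naive (3.73 ± 0.14), and the spindle motor Kif11 662 and 665 CPM in Treg against 59.8 and 56 CPM in naive (3.52 ± 0.13). Uhrf1, which carries DNA methylation through replication, measured 365 and 306 CPM in Treg against 53.6 and 47.6 CPM in naive (2.73 ± 0.15), and the origin licensing gene Cdc6 83 and 66.1 CPM in Treg against 15.2 and 12.8 CPM in naive (2.42 ± 0.18). In the Ube2c promoter the homology element begins 29 bases before the start, with CCAAT boxes 57 and 88 bases before it, and in Kif11 the element lies 19 bases and the CCAAT box 45 bases before the start. Of 24 mitosis genes with a promoter in the table, 18 (75%) held the homology element and 17 (70.8%) held both it and a CCAAT box, beside 14.1% and 6% of the promoters of 10275 tested genes. Of 23 replication genes, 13 (56.5%) held an E2F word, beside 12.1%. Of 17 cholesterol synthesis genes, 15 (88.2%) held a CCAAT box, beside 38.8%. Over the 27025 promoters of the table these shares were 19.4% for the homology element, 37.9% for the CCAAT box and 6.93% for the E2F words. A word in a promoter is a description and not a bound site.

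Metabolic genes of growing cells were higher in Treg. All 24 cholesterol synthesis genes were higher, with a median log2 fold change of 1.89. Hmgcs1, whose enzyme opens the mevalonate pathway and whose promoter is printed above, measured 404 and 465 CPM in Treg, against 58.3 and 59.6 CPM in naive (log2 fold change 2.88 ± 0.17, edgeR adjusted p = 9.17e-07). Fdps measured 190 and 205 CPM in Treg against 21.6 and 18.1 CPM in naive (3.31 ± 0.14). Their regulator Srebf2 measured 539 and 562 CPM in Treg against 327 and 318 CPM in naive (0.77 ± 0.10). The 8 genes of cholesterol efflux and LXR action mostly lay lower (5 lower, 1 higher). Apoe (17.1 and 30.7 CPM in Treg against 404 and 344 CPM in naive; -3.98 ± 0.26) and Nr1h3 (2.42 and 2.30 CPM in Treg against 62.3 and 56.4 CPM in naive; -4.65 ± 0.17), both strongly expressed by macrophages, were lower, as was the cholesterol exporter Abca1 (25.6 and 25.4 CPM in Treg against 111 and 103 CPM in naive; -2.06 ± 0.14). The part of macrophages in those values was not tested.

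Fatty acid synthesis genes were higher in 13 of 20 cases and lower in 3 (1 without naive library 2), with a median log2 fold change of 0.94. The desaturase Scd2 measured 2057 and 2239 CPM in Treg, against 132 and 134 CPM in naive (log2 fold change 4.01 ± 0.12, edgeR adjusted p = 3.85e-08), and the desaturase Fads2 measured 58.8 and 54.5 CPM in Treg against 3.81 and 3.47 CPM in naive (3.96 ± 0.18). Fasn (1.05 ± 0.17), Acaca (1.47 ± 0.11) and Elovl6 (2.64 ± 0.12) were higher too. Phospholipid remodeling genes, a subject named in the title of the study, mostly did not pass. Of 30 tested, 8 were higher, 4 lower and 18 not called, beside 27.6% higher and 29% lower of all tested genes. Pla2g12a (1.28 ± 0.14) and Pcyt2 (1.02 ± 0.10) were higher, and Lpcat3, an acyltransferase that loads polyunsaturated chains, measured 49.5 and 49.1 CPM in Treg against 33.3 and 33.8 CPM in naive (0.55 ± 0.10). Lpcat2, which inflammatory myeloid cells express, measured 1.44 and 0.920 CPM in Treg against 42.9 and 41.8 CPM in naive (-5.14 ± 0.23), and Pla2g15 (-2.31 ± 0.13) and Pla2g4a (-2.76 ± 0.33) were lower.

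Glycolysis genes were higher in 18 of 21 cases (median 1.49). The 1 lower, Pfkfb3 (84.7 and 75.7 CPM in Treg against 110 and 107 CPM in naive; -0.44 ± 0.14), was not called without naive library 1, naive library 2 or Treg library 3. Ldha, which turns pyruvate to lactate, measured 1410 and 1267 CPM in Treg, against 396 and 402 CPM in naive (log2 fold change 1.75 ± 0.13, edgeR adjusted p = 3.7e-06), and the lactate exporter Slc16a3 measured 136 and 131 CPM in Treg against 9.78 and 11.1 CPM in naive (3.68 ± 0.18). Aldoc (4.09 ± 0.19), Tpi1 (2.93 ± 0.13) and Pgk1 (2.62 ± 0.09) had the largest gains among the enzymes. The glucose transporter Slc2a1 (61.3 and 57.4 CPM in Treg against 37 and 37 CPM in naive; 0.68 ± 0.12) was higher. Of 18 hypoxia response genes, 12 were higher and 1 lower, including Hif1a (648 and 719 CPM in Treg against 222 and 203 CPM in naive; 1.68 ± 0.09), Vegfa (29.9 and 38.6 CPM in Treg against 3.66 and 3.12 CPM in naive; 3.34 ± 0.20) and the prolyl hydroxylase Egln3 (55.2 and 57.3 CPM in Treg against 5.97 and 6.24 CPM in naive; 3.20 ± 0.22). Pdk1, whose kinase inhibits pyruvate dehydrogenase, was the one that fell (149 and 151 CPM in Treg against 256 and 301 CPM in naive; -0.89 ± 0.13).

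Serine, one-carbon and ATF4 genes were higher in 17 of 22 cases with none lower (median 1.73). Asparagine synthetase (Asns) measured 98.7 and 110 CPM in Treg, against 4.24 and 3.47 CPM in naive (log2 fold change 4.76 ± 0.17, edgeR adjusted p = 6.28e-08), the serine synthesis enzyme Phgdh 238 and 236 CPM in Treg against 54.2 and 51.3 CPM in naive (2.17 ± 0.10) and the mitochondrial folate enzyme Mthfd2 243 and 251 CPM in Treg against 49.8 and 53.6 CPM in naive (2.26 ± 0.14). Atf4, which drives many of these genes, measured 243 and 247 CPM in Treg against 215 and 219 CPM in naive and was called only in a fit of the 4 Treg and naive libraries among the alternatives (0.17). Of 20 aminoacyl-tRNA synthetases 17 were higher (median 0.82), Cars most (100 and 104 CPM in Treg against 32.1 and 31.1 CPM in naive; 1.69 ± 0.12). Of 14 amino acid transporters 6 were higher and 3 lower, beside 27.6% and 29% of all tested genes. The leucine transporter Slc7a5 measured 220 and 217 CPM in Treg against 46 and 41.7 CPM in naive (2.32 ± 0.11). Mitochondrial genes gained less, with 22 of 30 respiratory chain genes (median 0.52) and 14 of 23 mitochondrial ribosome genes (median 0.50) higher and none lower in either list.

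Ribosome biogenesis did not join these gains. Of 27 genes, 4 were higher, 6 lower and 17 not called, beside 27.6% higher and 29% lower of all tested genes. Their median log2 fold change was -0.27. Npm1 (918 and 825 CPM in Treg against 399 and 428 CPM in naive; 1.08 ± 0.12) and Ncl (1136 and 1048 CPM in Treg against 721 and 718 CPM in naive; 0.60 ± 0.08), the abundant nucleolar proteins, were higher. The RNA polymerase I subunit Polr1a (79.9 and 64.2 CPM in Treg against 117 and 113 CPM in naive; -0.67 ± 0.13) was lower. The count of 6 lower was 3 without either naive library, 2 without Treg library 3, and 10 with RLE scaling or DESeq2. Myc, which drives both growth metabolism and ribosome biogenesis, measured 80.4 and 76.1 CPM in Treg against 58.7 and 57.4 CPM in naive (log2 fold change 0.43 ± 0.17, edgeR adjusted p = 0.0569) and passed in a fit of only the 4 Treg and naive libraries and with limma's voom (0.43 in both).

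**Figure D5:**
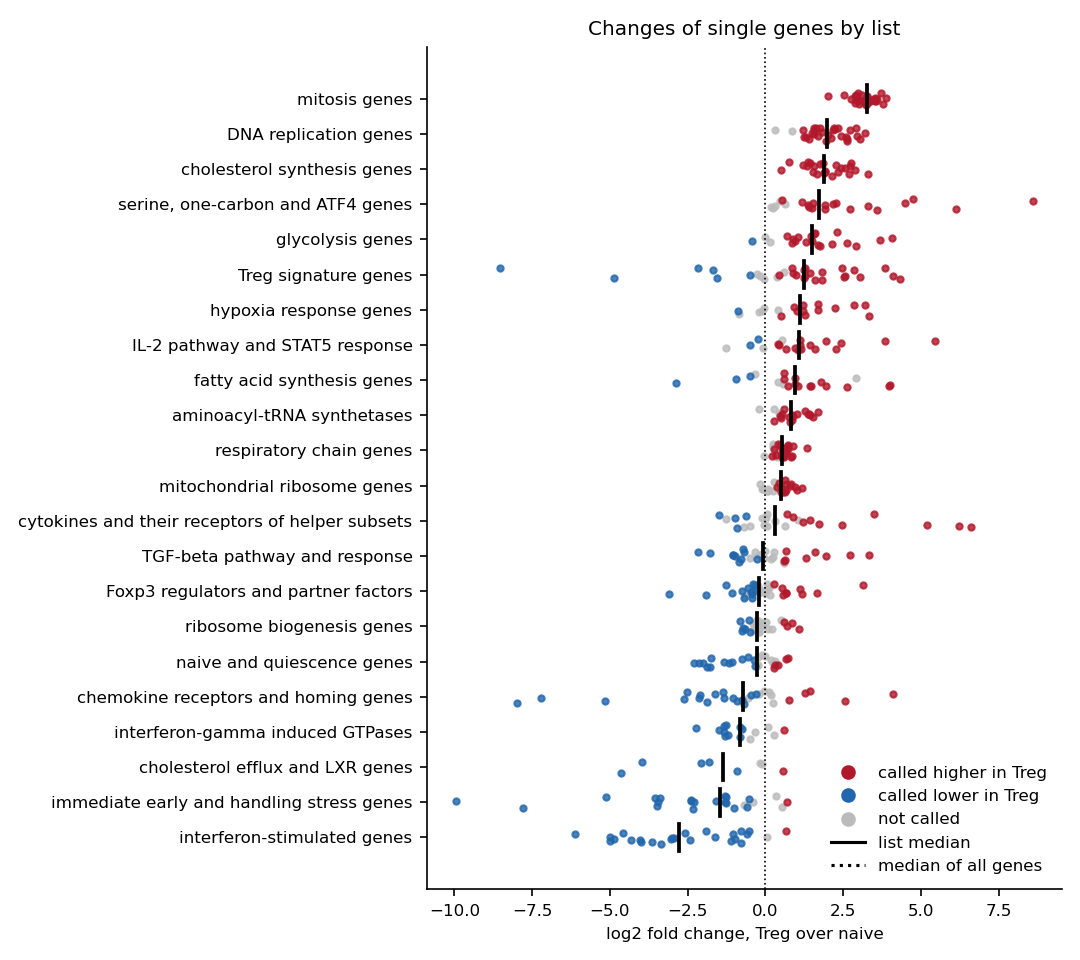
Log2 fold change, Treg over naive, of each tested gene of 22 lists; points are genes, bars are list medians and the dotted line is the median of all tested genes (-0.01). Mitosis (3.26) and replication (1.98) genes and the cholesterol list (1.89) stand to the right, and interferon-stimulated (-2.77) and immediate early genes (-1.45) to the left.

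Interferon-stimulated genes were lower nearly throughout. Of 26, 24 were lower and 1 higher (median log2 fold change -2.77). Oas2, a sensor of viral RNA, measured 1.18 and 0.690 CPM in Treg, against 62.9 and 71.1 CPM in naive (log2 fold change -6.13 ± 0.23, edgeR adjusted p = 7.97e-08), and the antiviral GTPase Mx1 measured 1.51 and 0.767 CPM in Treg against 32.6 and 36.1 CPM in naive (-4.88 ± 0.29). Irf7, which amplifies interferon production, measured 8.91 and 10 CPM in Treg against 78.7 and 72.5 CPM in naive (-3 ± 0.14). Ifit1 measured 2.88 and 2.15 CPM in Treg against 28.7 and 34.3 CPM in naive (-3.64 ± 0.23). Against Th0, 11 were higher and 3 lower in Treg, beside 25.7% higher and 20.6% lower over all tested genes. Against Th17, 11 were higher and 4 lower, beside 14.5% higher and 14.8% lower. Of 15 GTPases induced by interferon-gamma, 10 were lower and 1 higher, with Gbp9 at 49.5 and 48.2 CPM in Treg against 223 and 238 CPM in naive (-2.24 ± 0.11) and Igtp at 246 and 185 CPM in Treg against 151 and 132 CPM in naive (0.61 ± 0.14). Members of the Gbp family may share reads, so single values are uncertain. The macrophage, monocyte and dendritic cell markers given above were lower in the same libraries, and their part in the interferon values was not tested.

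Immediate early genes, which respond within minutes to signals and to cell handling, were lower in 19 of 24 cases (median -1.45). Fos measured 3.67 and 3.14 CPM in Treg, against 820 and 704 CPM in naive (log2 fold change -7.80 ± 0.22, edgeR adjusted p = 3.19e-08). Fosb measured 0.262 and 0.690 CPM in Treg against 513 and 415 CPM in naive (-9.95 ± 0.39, and -10.74 without Treg library 3), Jun 50.9 and 41.2 CPM in Treg against 567 and 524 CPM in naive (-3.56 ± 0.12) and the phosphatase Dusp1 18.7 and 15.9 CPM in Treg against 606 and 618 CPM in naive (-5.14 ± 0.12). All cultured libraries were low, with Fos at 10.9 and 7.16 CPM in Th0 and 4.29 and 5.53 CPM in Th17. The only gain in the list was the chaperone Hspa8 (2079 and 1816 CPM in Treg against 1310 and 1090 CPM in naive; 0.70 ± 0.11). The naive cells were taken from tissue and the others from culture, so handling and cell state cannot be told apart here.

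The genes with the largest single gains have mixed functions. Il24, an IL-10 family cytokine (chr1:130882074-130887454), measured 15.7 and 18.7 CPM in Treg and had no count in either naive library, at least 125-fold higher, and Th17 cultures held more (82.2 and 75.9 CPM). Lcn10, a lipocalin (chr2:25682726-25686081), measured 26.9 and 26.8 CPM in Treg against 0 and 0.0434 CPM in naive, and Ermn, an actin-binding gene known from oligodendrocytes (chr2:58045113-58052864), 48.6 and 41 CPM in Treg against 0.193 and 0.0434 CPM in naive (log2 fold change 8.52 ± 0.36, edgeR adjusted p = 1.36e-07). With so few naive counts these folds depended on the naive library used, at 9.03 and 11.69 for Lcn10 and 9.77 and 7.80 for Ermn without naive library 1 and without naive library 2. Arg1, the arginine-degrading enzyme (chr10:24915208-24927470), measured 28 and 31.8 CPM in Treg against 0.385 and 0.477 CPM in naive (log2 fold change 6.08 ± 0.37, edgeR adjusted p = 1.06e-06). The protease inhibitor Serpine2 (6.06 ± 0.21), the laminin chain Lama5 (6.32 ± 0.21), the NF-κB restraining gene Tnip3 (5.70 ± 0.25), the synaptic vesicle gene Sv2c (5.71 ± 0.20) and the thyroglobulin gene Tg (6.07 ± 0.21) followed, with both Treg libraries above both naive libraries in each. Both Th17 libraries lay above both Treg libraries for Ermn, Lama5 and Tg, as did both Th0 libraries for Tg and Tnip3. For Lcn10 and Arg1 both Treg libraries lay above every Th0 and Th17 library. Scrt1 measured 9.04 and 13 CPM in Treg against 0 and 0.0434 CPM in naive (log2 fold change 8.50 ± 2.38, edgeR adjusted p = 0.013), a call lost with limma's voom (8.09) and without naive library 1 (7.75) or naive library 2 (10.40).

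The 12 greatest losses had no count in either Treg library. Adgre4 (chr17:55749984-55853662), an adhesion receptor of monocytes and macrophages, measured 202 and 184 CPM in naive and was at least 906-fold lower. Complement C6 was at least 409-fold lower, the collagen gene Col14a1 at least 358-fold, Ace 228-fold and the red cell anion exchanger Slc4a1 207-fold. Timd4 was at least 195-fold lower, Cd300e 181-fold, Sirpb1a 175-fold, Abca9 121-fold, and Siglech and Adgrl3 111-fold each. Cd163, given above, was the remaining one. Of these genes, Adgre4, Ace, Cd163, Slc4a1 and Siglech are themselves members of the marker lists for other cell types. The part of those cells in the losses was not tested. Among genes that Th0 cultures also held at 1 CPM or more, the greatest losses were Fosb, Fos and Klf4 (0.524 and 0.690 CPM in Treg against 83.8 and 69.6 CPM in naive; -6.98 ± 0.23), followed by Ppfia4 (-6.71 ± 0.46), the lysosomal gene Plbd1 (-6.39 ± 0.23), the potassium channel Kcna2 (-5.83 ± 0.28) and Mpeg1 (-5.81 ± 0.14). The voltage-gated calcium channel Cacna1e (-5.61 ± 0.16), Pld4 (-5.56 ± 0.20), Trim30b (-5.41 ± 0.27) and the phospholipid floppase Abcb4 (-5.32 ± 0.25) came after them. Mpeg1 is itself a member of the red pulp macrophage list. The part of other spleen cells in this second set of losses was not tested either.

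Setd2, the enzyme that places trimethyl marks on histone H3 lysine 36 and is named in the title of the study, measured 169 and 168 CPM in Treg, against 286 and 265 CPM in naive (log2 fold change -0.71 ± 0.11, edgeR adjusted p = 0.000454). Both Treg libraries were below both naive libraries. A list of 24 genes covered methylation of histone H3 lysine 36 of any degree, not only trimethyl. Of these, 12 were higher and 7 lower (median log2 fold change 0.27), beside 27.6% and 29% of all tested genes. Ash1l (122 and 117 CPM in Treg against 224 and 209 CPM in naive; -0.85 ± 0.11) was lower with Setd2, whereas Whsc1 (Nsd2), which writes the dimethyl mark, was higher (323 and 268 CPM in Treg against 63.9 and 60.3 CPM in naive; 2.25 ± 0.12), as was the reader Phf19 (1.97 ± 0.14). Without naive library 1 the counts were 7 higher and 3 lower. Of 21 DNA methylation and Polycomb genes, 9 were higher and 5 lower, beside the same 27.6% and 29%. The maintenance methyltransferase Dnmt1 (736 and 626 CPM in Treg against 220 and 219 CPM in naive; 1.63 ± 0.10) and Ezh2, the H3K27 methyltransferase (225 and 204 CPM in Treg against 64 and 61.5 CPM in naive; 1.77 ± 0.11), were higher. Tet1, which oxidises methylcytosine, was lower (13.8 and 16.9 CPM in Treg against 34.6 and 34.9 CPM in naive; -1.18 ± 0.18).

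Survival genes changed in both directions. Of 16 BCL2 family genes, 6 were higher and 8 lower, beside 27.6% and 29% of all tested genes. The protective Bcl2 and Bcl2l1 (32.6 and 35.4 CPM in Treg against 13.8 and 10.4 CPM in naive; 1.49 ± 0.20) were higher, and the equally protective Mcl1 was lower (447 and 466 CPM in Treg against 872 and 811 CPM in naive; -0.88 ± 0.08). Among death-promoting members, Pmaip1 (NOXA; 18.9 and 22.3 CPM in Treg against 201 and 174 CPM in naive; -3.19 ± 0.14) and Bcl2l11 (BIM; 35.8 and 40.4 CPM in Treg against 56.5 and 63.4 CPM in naive; -0.65 ± 0.13) were lower, and Bax (65.8 and 60.2 CPM in Treg against 42.4 and 45.5 CPM in naive; 0.52 ± 0.10) was higher. In the GIMAP family, GTPases of lymphocyte survival, 4 of 8 were higher and 2 lower, beside 27.6% and 29% of all tested genes. Gimap7 (139 and 147 CPM in Treg against 53.2 and 61.2 CPM in naive; 1.33 ± 0.10) and Gimap6 (434 and 455 CPM in Treg against 1031 and 1143 CPM in naive; -1.29 ± 0.09) stood at the ends of the range. With 1 naive library or Treg library 2 left out, 2 of the GIMAP genes were higher.

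Treg cultures were also tested directly against the other cultures. Against Th0, 6790 genes (46.2%) were called, 25.7% of all tested genes higher and 20.6% lower in Treg. Against Th17, 4294 genes (29.2%) were called, 14.5% higher and 14.8% lower. In the Treg signature 18 were higher and 4 lower than in Th0 (median log2 fold change 0.98), and 16 higher and 5 lower than in Th17 (median 0.57). Foxp3, Itgae (3.49 against Th0), Ikzf4 (3.04), Gpr83 (2.65) and Ikzf2 (2.06) were among the genes higher than in Th0. GITR, OX40 and Icos were not called against Th0 (log2 fold changes -0.02, -0.15 and 0.07), and Lag3 was lower (log2 fold change -0.76 ± 0.10, edgeR adjusted p = 0.000329). Of the homing genes, 16 were higher and 3 lower than in Th0, and 12 higher and 7 lower than in Th17. Cholesterol genes were higher in 13 and lower in 3 cases against Th0, and higher in 4 with none lower against Th17.

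The myeloid traces also differed among the cultures. Macrophage markers summed to 247 and 226 CPM in Treg, to 178 and 166 CPM in Th17 and to 47.3 and 50.4 CPM in Th0, and 16 of the 18 were higher in Treg than in Th0 (median log2 fold change 4.80). Cd5l, a secreted protein of splenic macrophages, measured 27 and 27 CPM in Treg, against 0.264 and 0 CPM in Th0, and Mrc1 measured 9.24 and 12.9 CPM in Treg, against 0.264 and 0 CPM in Th0. B cell markers summed to 697 and 635 CPM in Treg, to 1426 and 1630 CPM in Th17 and to 757 and 777 CPM in Th0. The CD8 genes summed to 426 and 469 CPM in Treg, to 122 CPM in both Th17 libraries and to 176 CPM in both Th0 libraries. The part of these cells in the differences between cultures was not tested.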

How the data were processed

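RNA-seq of 8 libraries was used, 2 each for Treg, Th17, Th0 and naive cells, with group and replicate number taken from the sample titles. RNA was isolated in TRIzol and read on an Illumina HiSeq, per the labels' protocols. The submitters' processing notes name Bowtie2, RSEM, GRCm38.p6 and mm10, and their roles and versions, the annotation release and the strandedness are not given in the sources used here. Per the file headers, the authors' table holds a raw count and an FPKM value of each library for 34745 genes. All deposited counts are whole, and no source says if RSEM estimates were rounded. FPKM values as deposited equalled count over library total and a fixed gene length within a relative tolerance of 0.001 in 100.0% of 132904 values above 0, and were used only to set Cd4 beside the Cd8 genes.

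The members of the gene lists, the lists themselves and the comparison were chosen with earlier results of these data known. The test was edgeR 4.0.16 under R 4.3.3: filterByExpr left 14690 genes, TMM scaled the libraries, and glmQLFit and glmQLFTest were fitted to the means of all 4 groups, which share 1 estimate of the spread (common biological coefficient of variation 0.13, with 4 residual and a median of 5.22 prior degrees of freedom). Calls needed a p under 0.05 after Benjamini-Hochberg adjustment over all tested genes of a contrast. Standard errors were taken as log2 fold change over the root of F. Th0 against naive and Th17 against naive share the naive libraries with the main contrast and were not compared with it.

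Named genes were the 12 highest and 12 lowest fold changes among called genes that reach 10 CPM without overlap of the groups, the 12 lowest again among genes at 1 CPM or more in Th0, up to 6 called members of each list with the greatest change, all Treg signature and Foxp3 regulator genes, and 12 genes set by name. A further 72 genes were named after their values were seen, for their known role in a list, among them Mki67, Tbx21, Mcpt8 and Cd5l. Some genes that the rule names are not reported here, and they stay in the counts.

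A count of 0 was given a limit of 3 counts per library, averaged over the group (0.213 CPM in Treg and 0.137 CPM in naive), and folds against such a group are lower bounds that cover counting error only. Replicates differed by more than counting noise (chi-square per degree of freedom 8.77 in Treg, 14.6 in Th0, 17.4 in Th17 and 10.4 in naive), so no pair is 1 library deposited in duplicate. Pseudogenes took 1.79% to 2.42% of the counts. Strand being unknown, a gene and its antisense partner cannot be told apart where they overlap. Coordinates are those of the table on GRCm38. Promoters came from a RefSeq table with 27025 genes, and 24 of 30 mitosis, 23 of 28 called replication and 17 of 24 cholesterol genes matched by symbol. The alternatives were RLE and upper-quartile scaling, 2 other filters on low counts, DESeq2 1.42.0, limma 3.58.1 with voom, a fit of 4 libraries, a test against a 2-fold change, a replicate block, removal of the marker genes of other cells, and each library left out in turn.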

Additional observations from a re-analysis of the deposited data

How the results depend on the processing

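The count of 8312 called genes stayed within 1.5 times in 17 of 18 alternatives, between 6597 without naive library 1 and 8977 in a fit of only the Treg and naive libraries. The exception, by its own construction, was the test against a 2-fold change, which called 2983 genes, 1215 higher and 1768 lower. With DESeq2 the count was 7332, of which 7149 were also called in edgeR. Without the marker genes of other cells, MHC class II genes included, it was 8250. Leaving out a Treg or naive library gave 6597 to 6924, and leaving out a Th0 or Th17 library gave 8471 to 8774. The median of all genes moved by more than 0.1 without a filter on low counts (-0.12) or with DESeq2 (-0.14). Foxp3 was called in all 18 alternatives, at 1.46 to 1.74.

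Treg and naive share only replicate number 2, and the deviations of those libraries from their group means correlated at 0.0757. A single such pair cannot show whether the numbers pair the samples. With the replicate block 7334 genes were called, 3649 higher and 3685 lower.

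Over 406 genes besides Foxp3 and 18 alternatives, 6929 of 7208 values kept direction and side of the threshold. Of the others, 251 kept their direction but not their call, 115 of them in the test against a 2-fold change, 18 gained a call, and 10 changed sign, all in genes that were not called. Those were Penk (0.11 with the replicate block, and -0.48 to 0.0018 with 1 library left out), Batf (-0.0008 with RLE scaling), Bach2 (-0.65 to 0.10 with 1 library left out), Lef1 (-0.12 to 0.085), Kat5 (-0.12 to 0.046), Fen1 (-0.43 to 1.51) and Foxp1 (-0.65 to 0.71). The cause was not tested, although the Treg libraries of Fen1, Foxp1 and Bach2 lay far apart. A further 12 genes that a draft described were left out of the account once their values under the alternatives were seen, so the shares above favour stable genes. Among their 216 values, 14 changed sign (Nop56, Rora, Slc2a3, Stat2, Tet2 and Tgfbr1, none of them called) and 28 changed only their call (Cd27, Skil, Fbl, Ptprc, Tet3 and Trac, of which only Cd27 and Skil were called to begin with). The marker calls of plasma cells and platelets were also unstable, with Tnfrsf13b lost without either naive library or Treg library 3, and 3 platelet genes lower without Treg library 3. With 2 libraries a group, small changes and genes under a few CPM are poorly resolved.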
